A study of Homo sapiens with 6 samples.

Results

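The desmosome components described here were 10 genes, namely the cadherins DSG1, DSG2, DSG3, DSC2 and DSC3, the plakin DSP and the armadillo proteins PKP1, PKP2, PKP3 and JUP. They were found by matching the RefSeq accession of each probe to these symbols. The match gave 13 probes out of 34127 on the array, and all 13 were among the 27624 probes tested. The 10 genes were part of 19740 genes on the array, of which 16821 were tested. Each of the 13 probes stood above background on all 6 arrays.

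Desmosomes are button-like junctions that tie the keratin filaments of neighbouring epithelial cells together. Desmogleins (DSG) and desmocollins (DSC) are transmembrane cadherins that bind across the gap between cells, plakoglobin (JUP) and the plakophilins (PKP) hold their tails inside the cell, and desmoplakin (DSP) links this plaque to keratin. Tongue carcinoma arises from stratified squamous epithelium. In the epidermis, an epithelium of this kind, DSG3 and DSC3 are typical of the lower layers, and DSG1 and PKP1 of the upper layers. DSG2, DSC2 and PKP2 also occur in simple epithelia and in heart muscle.

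The cells were CAL-27, an established line of human tongue squamous cell carcinoma. They carried either a stably transduced short hairpin RNA against XBP-1s (shXBP-1s, n = 3) or a control hairpin (shCtrl, n = 3), and no other treatment was named. XBP-1s is the transcription factor made from spliced XBP1 mRNA when IRE1 senses unfolded protein in the endoplasmic reticulum. The series compared the transcripts of cells with and without the hairpin against this factor. A single cell line was used, and the labels do not say that samples came from separate cultures, so that p-values measure only the spread between these samples, which may be technical. The knockdown was seen in the probe of XBP1 (NM_005080), whose processed signal was 2536.2, 2743.4 and 2766.0 on the shCtrl arrays and 695.4, 617.2 and 551.0 on the shXBP-1s arrays. XBP1 fell by 2.39 on the log2 scale (standard error 0.04, limma adjusted p = 2.81e-07). Whether this probe separates spliced from unspliced XBP1 is not given in the sources used here.

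Between 82.1% and 84.8% of the spots of an array were well above background, and no spot was saturated. The number of arrays limits the precision, and an exact permutation test of 3 against 3 arrays cannot go below p = 0.1. The 3 shXBP-1s arrays and shCtrl replicate 1 had the same scan identifier in their headers, and shCtrl replicates 2 and 3 had another. Each identifier was taken to stand for 1 slide, which the labels do not state. Values within the shared slide rest on a single control array and are given below where they matter. All 7 squamous epithelium markers (KRT5, KRT14, KRT6A, TP63, EPCAM, CDH1 and SFN) were above background on all 6 arrays. Their summed signal was 100 to 107 times the 75th percentile of the array in shCtrl and 135 to 160 times in shXBP-1s, and 5 of the 7 rose by limma's adjusted p, with KRT6A (4.28) ahead of KRT14 (1.58) and KRT5 (1.43) in log2 fold change, named after these values were seen. The summed fibroblast markers were at 0.925 to 1.02 times the percentile in shCtrl and 0.503 to 0.543 in shXBP-1s (4 of 5 above background on all arrays, COL3A1 on none). The leukocyte markers were at 4.39 to 6.27 and 3.05 to 3.29 (4 of 4), the melanocyte markers at 0.253 to 0.287 and 0.182 to 0.203 (2 of 3, TYR on none), the endothelial markers at 0.197 to 0.259 and 0.244 to 0.26 (3 of 3), and the cardiac muscle markers at 0.0718 to 0.0953 and 0.0607 to 0.0828 (1 of 2). The sums hide opposite changes of single markers by limma's adjusted p. Of the fibroblast markers, 1 was higher (DCN, log2 fold change 1.425) and 2 lower (PDGFRB, -1.277, and COL1A1, -0.631). Of the melanocyte markers, 1 was higher (MLANA, 0.991) and 1 lower (PMEL, -0.736), all named after their values were seen. The part of the cell type markers in the results on desmosomes was not tested.

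Most desmosomal cadherins were higher in shXBP-1s cells, whereas the plaque proteins differed less or did not pass the test. DSC2 rose 3.37-fold and DSG3 2.25-fold, DSG2 and DSC3 rose 1.75-fold and 1.76-fold by their brightest probes, and JUP rose 1.28-fold. DSP rose 1.12-fold and 1.22-fold in its 2 probes, while PKP1, PKP2, PKP3 and DSG1 did not pass the test. In this bulk RNA, a larger share of cells with a transcript and more of it per cell cannot be told apart.

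By limma with Benjamini-Hochberg adjustment over all tested probes, 3 of the 13 probes passed an adjusted p of 0.05 with at least a 2-fold change, all of them higher in shXBP-1s. The same was true of 2.29% of all tested probes in that direction, and 2.61% passed in the other, where no desmosome probe did. By the adjusted p alone, 8 of the 13 were higher and 0 lower, against 18.4% and 23.3% of all tested probes. In these 8 the 3 shXBP-1s arrays lay above all 3 shCtrl arrays, as in 23.9% of all tested probes, and in the other 5 the groups overlapped. The median log2 fold change was 0.35 over the 13 probes and -0.02 over all tested probes. Counted by gene, with the brightest probe of each, 2 of 10 passed with the fold and 6 of 10 by the adjusted p alone, all higher, and the median was 0.51. Over all tested genes, 2.3% passed higher and 2.88% lower with the fold, 18.9% higher and 27.5% lower by the adjusted p alone, and the median was -0.04. By role, 5 of 6 cadherin probes passed by the adjusted p alone (median log2 fold change 0.93), as did 2 of 2 plakin probes (0.22) and 1 of 5 armadillo probes (0.05).

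**Figure D1:**
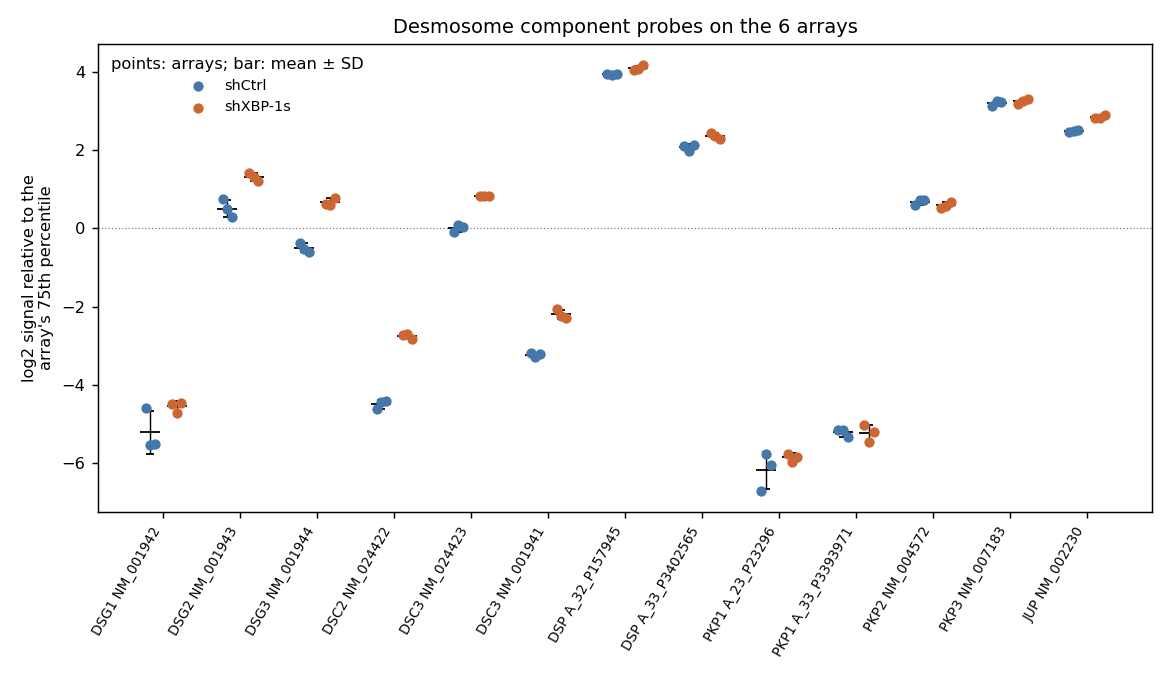
Log2 signal relative to the 75th percentile of the array (y axis) for the 13 desmosome probes (x axis, by gene and accession or probe) on 3 shCtrl and 3 shXBP-1s arrays, with points for arrays and bars for mean ± SD. The groups are apart for DSG2, DSG3, DSC2, DSC3, both DSP probes and JUP, and overlap for DSG1, PKP1, PKP2 and PKP3, and heights of different probes cannot be compared.

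Among the desmogleins, DSG3 had the largest change. DSG3 (NM_001944) is the pemphigus vulgaris antigen, typical in the epidermis of the lower layers. Its processed signals were 534.1, 529.2 and 501.0 in shCtrl and 1524.6, 1362.8 and 1364.9 in shXBP-1s. All shXBP-1s arrays were thus above all shCtrl arrays, also after scaling, at -0.49 ± 0.12 against 0.68 ± 0.10 (log2 relative to the 75th percentile, SD, n = 3). The log2 fold change of DSG3 was 1.17 (standard error 0.08, limma adjusted p = 1.32e-05), and only 1.69% of the tested probes had one as high or higher. Within the shared slide it was 1.04, and leaving out any array gave 1.11 to 1.23.

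DSG2, the desmoglein shared by most desmosome-bearing tissues (NM_001943), gave signals of 1148.4, 1066.4 and 927.6 in shCtrl and 2635.5, 2222.2 and 1827.4 in shXBP-1s. The groups did not overlap, but the shCtrl arrays were spread, from 0.30 to 0.74 on the log2 scale after scaling, with the array on the shared slide the highest. DSG2 rose by 0.81 on the log2 scale (standard error 0.11, limma adjusted p = 0.00064), or by 0.57 within the shared slide.

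DSG1, the pemphigus foliaceus antigen of the upper layers (NM_001942), was dim, at 28.4, 16.3 and 16.5 in shCtrl and 43.8, 34.1 and 36.1 in shXBP-1s. After scaling, shCtrl replicate 1 (-4.60) lay within the range of the shXBP-1s arrays (-4.71 to -4.45) and the other 2 controls lay below it (-5.55 and -5.52). The log2 fold change of 0.67 (standard error 0.25) did not pass the test (limma adjusted p = 0.0648). It was 0.98 without shCtrl replicate 1, with an adjusted p of 6.69e-04, and 0.04 within the slide that this array shared with the shXBP-1s arrays.

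Among the 13 probes, that of DSC2 had the largest change on the processed signal. After normexp background correction it had 0.34, below DSG3 (0.92), DSG2 (0.84), the brighter DSC3 probe (0.84), JUP (0.46) and the dimmer DSP probe (0.455). With quantile normalization after normexp, only DSG3 lay above it (0.97 against 0.88). DSC2, the desmocollin found in most epithelia and in heart (NM_024422), had signals of 27.8, 35.0 and 35.2 in shCtrl and 149.6, 138.0 and 112.3 in shXBP-1s. The arrays within each group were close, at -4.50 ± 0.11 and -2.74 ± 0.07 after scaling (log2, SD, n = 3), and the groups were far apart. The log2 fold change was 1.75 (standard error 0.09, limma adjusted p = 4.75e-06), and 139 tested probes, or 0.503%, had one as high or higher. Within the shared slide it was 1.89, and leaving out any array gave 1.69 to 1.79.

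DSC3, the desmocollin of the lower epidermal layers and the usual partner of DSG3, had 2 probes listed under different transcripts. The brighter probe (NM_024423) read 642.7, 809.8 and 772.9 in shCtrl and 1734.3, 1583.7 and 1400.0 in shXBP-1s. After scaling, its 3 shXBP-1s arrays were nearly equal, at 0.82 ± 0.003, against 0.01 ± 0.10 in shCtrl (log2, SD, n = 3). It rose by 0.81 on the log2 scale (standard error 0.06, limma adjusted p = 1.9e-05), short of 2-fold.

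The dimmer DSC3 probe (NM_001941) read 74.9, 77.2 and 81.2 in shCtrl and 235.1, 189.2 and 160.7 in shXBP-1s, again with no overlap between groups. Its log2 fold change of 1.04 (standard error 0.08, limma adjusted p = 3.2e-05) passed the 2-fold limit narrowly. It fell short of that limit without shXBP-1s replicate 1 (0.97) and within the shared slide (0.996). The probes of DSC3 thus agreed in direction and lay on either side of 2-fold. They belong to the same gene, although listed under different transcripts, so they do not count as replicates.

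The calls with a 2-fold limit were lost when values were taken from the median spot signal with normexp background correction in place of the processed signal. Normexp shifted the median of all tested probes to -0.41. The log2 fold changes were then 0.92 for DSG3, 0.34 for DSC2 and 0.24 for the dimmer DSC3 probe, or 1.33, 0.75 and 0.65 above that median. DSC2 (limma adjusted p = 0.515) and the dimmer DSC3 probe (0.529) no longer passed the test there, while DSG3 did (6.86e-17). With quantile normalization after normexp they were 0.97, 0.88 and 0.63, all 3 past the adjusted p of 0.05 and none past 2-fold.

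**Figure D2:**
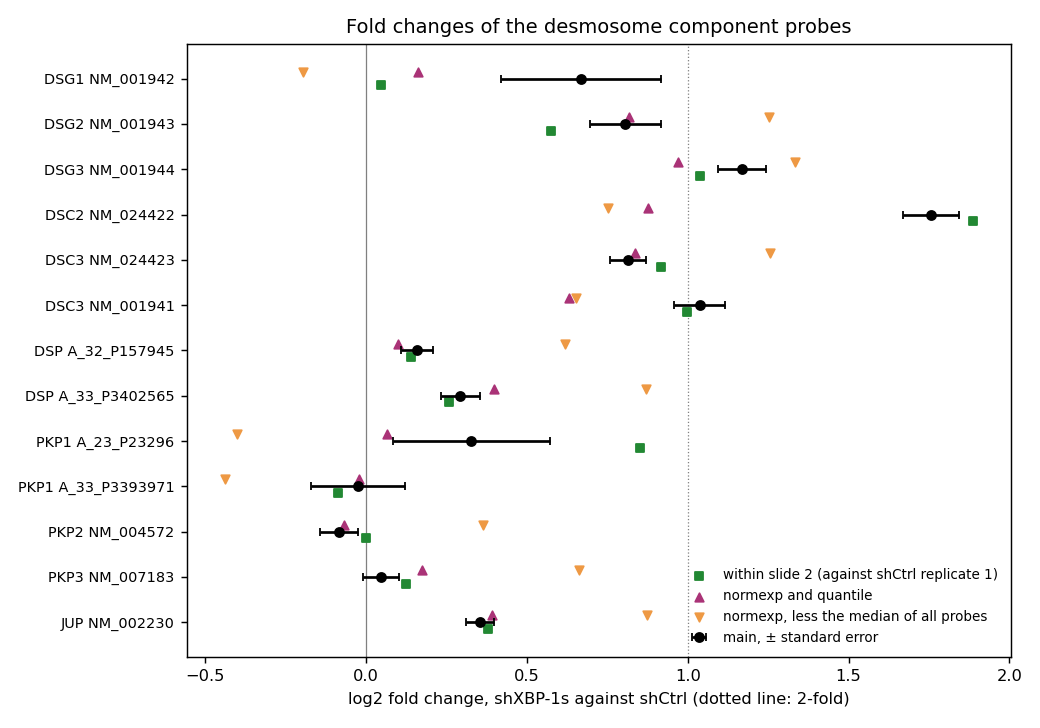
Log2 fold change of each desmosome probe, shXBP-1s against shCtrl (x axis), with the standard error, beside the difference within the shared slide, after normexp and quantile normalization, and after normexp less the median of all probes. The 5 probes of DSG2, DSG3, DSC2 and DSC3 are to the right of 0 in all 4. So are both DSP probes, JUP and PKP3. DSG1, PKP2 and the dimmer PKP1 probe have values on both sides, and the brighter PKP1 probe lies to the left in all 4.

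Desmoplakin (DSP, NM_004415), which ties the plaque to keratin filaments, was measured by 2 probes of the same transcript. The brighter gave 10683.7, 11461.3 and 11657.6 in shCtrl and 16235.7, 15073.6 and 14283.7 in shXBP-1s, and the other gave 2967.7, 2998.9 and 3326.2 against 5370.5, 4579.0 and 3892.8. Part of this difference went with scaling to the array, since the shXBP-1s arrays were brighter as a whole, with 75th percentiles of 983.4, 894.5 and 792.0 against 687.4, 761.3 and 755.4. In both probes the scaled values still did not overlap between groups.

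The brighter DSP probe rose by 0.16 on the log2 scale (standard error 0.05, limma adjusted p = 0.0374). That call was lost when any array but shXBP-1s replicate 1 was left out, with adjusted p-values up to 0.112 and changes of 0.12 to 0.17. The other DSP probe rose by 0.29 (standard error 0.06, limma adjusted p = 0.00608), and by 0.26 within the shared slide, where the slide as a block gave an adjusted p of 0.0635.

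Plakoglobin (JUP, NM_002230), the armadillo protein common to desmosomes and adherens junctions, read 3790.5, 4276.6 and 4317.0 in shCtrl and 6899.2, 6354.0 and 5874.6 in shXBP-1s. After scaling, the groups were tight and apart, at 2.49 ± 0.03 and 2.84 ± 0.04 (log2, SD, n = 3). JUP rose by 0.35 on the log2 scale (standard error 0.04, limma adjusted p = 4.01e-04) and by 0.38 within the shared slide. It was the only armadillo member past the test.

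The plakophilins, which cluster the cadherin tails and bind desmoplakin, did not pass the test. PKP3, the form present in nearly all epithelial layers (NM_007183), had scaled values of 3.13, 3.27 and 3.22 in shCtrl and 3.19, 3.25 and 3.32 in shXBP-1s. Its groups overlapped and differed by 0.05 on the log2 scale (standard error 0.06, limma adjusted p = 0.556), although normexp with quantile normalization gave 0.17 and an adjusted p of 0.00787. PKP2, the form of simple epithelia and heart (NM_004572), had 0.59, 0.72 and 0.71 against 0.53, 0.58 and 0.67, also overlapping. Its log2 fold change was -0.08 (standard error 0.06, limma adjusted p = 0.281).

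PKP1, the plakophilin of the upper squamous layers (NM_000299), was close to the lower end of detection in both probes. The signals of its brighter probe were 19.3, 21.4 and 18.6 in shCtrl and 29.9, 20.1 and 21.4 in shXBP-1s, while the lowest signal called well above background lay between 4.86 and 7.35 on the 6 arrays. That probe had a log2 fold change of -0.02 (standard error 0.15, limma adjusted p = 0.91), and its sign turned with the array left out, from -0.12 to 0.09. The dimmer probe read 6.6, 13.8 and 11.3 against 18.1, 14.3 and 13.9, with overlapping groups after scaling. Its log2 fold change was 0.33 (standard error 0.24, limma adjusted p = 0.326) and reached 0.85 within the shared slide, where shCtrl replicate 1 was its lowest array (adjusted p = 0.0218 with the slide as a block).

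All desmosomal cadherin genes lie next to each other on chromosome 18, in the order DSC3, DSC2, DSC1, DSG1, DSG4, DSG3 and DSG2 of the RefSeq annotation. All 6 tested probes of the 5 members had positive log2 fold changes, from 0.67 to 1.75. DSG4, a desmoglein best known from the hair follicle, had signals of 9.0 to 9.8 in shCtrl and 13.1 to 17.5 in shXBP-1s, and its log2 fold change of 0.38 did not pass the test (limma adjusted p = 0.103). DSC1, the desmocollin of the uppermost layers, was not well above background on any array. Of the 5 protein-coding genes before the cluster, CDH2 (N-cadherin) rose by 0.38 in 1 of 2 probes and had 0.08 in the other, and KCTD1 rose by 0.27 and 0.48 in its 2 probes (limma adjusted p = 0.00283 for CDH2, 0.00941 and 0.00486 for KCTD1). TAF4B (-0.04 and 0.02) and AQP4 (-0.16) did not pass, and CHST9 had no tested probe. Of the 5 genes after it, B4GALT6 (-0.13), TRAPPC8 (-0.15) and RNF125 (0.24) did not pass, and TTR and SLC25A52 had no tested probe. Within the shared slide, DSG1 (0.04) lay below CDH2 (0.50 and 0.16) and KCTD1 (0.38 and 0.43).

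**Figure D3:**
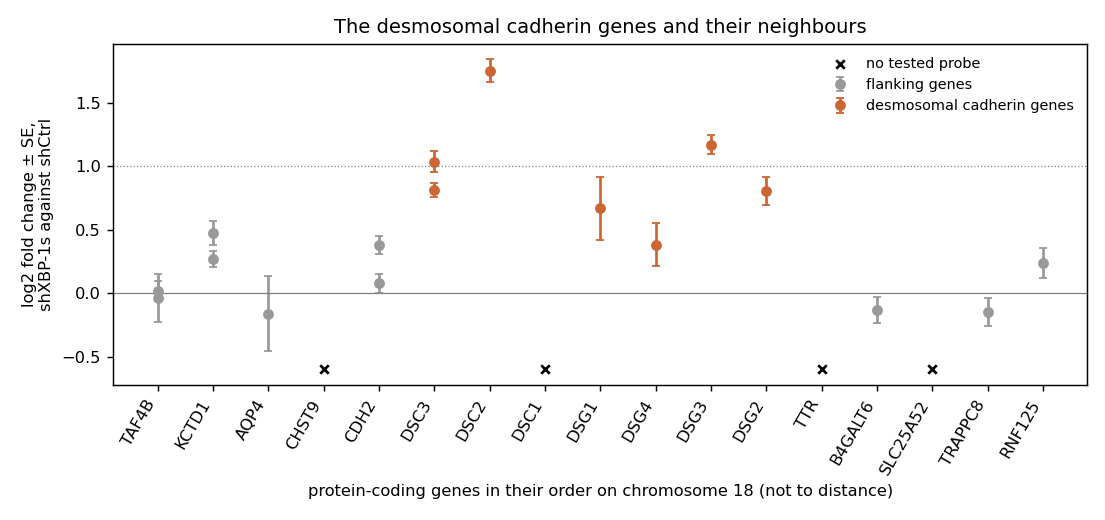
Log2 fold change ± standard error, shXBP-1s against shCtrl (y axis), of each tested probe of the desmosomal cadherin genes and of 5 protein-coding genes on either side, in their order on chromosome 18 (x axis, not to distance). The cadherin genes lie between 0.38 and 1.75, the flanking genes between -0.16 and 0.48, and crosses mark genes without a tested probe.

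Promoter windows, from 250 bases before to 50 after the annotated start, were taken from RefSeq (GRCh38.p14) for 8 of the 10 members, with 2 windows each for DSC2 and JUP and none for PKP2 and PKP3. Both strands were searched for ACGTG, the core that XBP-1s recognises, CCACG, a part of the endoplasmic reticulum stress element, and TGANTCA, the AP-1 site. ACGTG and CCACG can share letters, as in CCACGTG. Of these, ACGTG was present in 1 of the 10 windows and in 21.4% of all 35116 windows, CCACG in 5 of 10 and in 38.1%, and TGANTCA in 0 of 10 and in 7.71%. The window with ACGTG belonged to DSC2 and held it 3 times, at -223, -198 and -173 from the start, in a repeated stretch, with a CCACG at -138. At least 3 matches of ACGTG were found in 697 windows, or 1.98%. This window is shown because it alone among the members holds the XBP-1s core, and the capitals mark ACGTG and CCACG (chr18:31101211-31101510, minus strand, read 5′ to 3′).
DSC2: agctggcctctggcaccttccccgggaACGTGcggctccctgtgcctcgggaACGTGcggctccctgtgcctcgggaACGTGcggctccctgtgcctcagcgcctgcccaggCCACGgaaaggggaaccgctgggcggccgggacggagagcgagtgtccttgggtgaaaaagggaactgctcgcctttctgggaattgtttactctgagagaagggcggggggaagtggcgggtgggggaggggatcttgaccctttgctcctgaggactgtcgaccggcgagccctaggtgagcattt

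The windows of DSG1 and DSG3 shared a run of 20 bases, AAGTTTTTACCTGGGAGCAA, which occurred in 2 of all windows. The next longest run between windows of 2 member genes had 12 bases, in DSG2 and JUP. Neither DSG1 nor DSG3 held a match to the motifs searched, and their windows had a GC content of 45.7% and 44.0%, against 65.7% for the DSC2 window shown and a median of 58.7% over all windows. The 2 windows are shown for this shared run, in capitals, which begins at -120 in DSG1 (chr18:31317910-31318209, plus strand) and at -78 in DSG3 (chr18:31447491-31447790, plus strand). The pair differed in the data, with DSG3 past the test and DSG1 not, a difference that was not itself tested.
DSG1: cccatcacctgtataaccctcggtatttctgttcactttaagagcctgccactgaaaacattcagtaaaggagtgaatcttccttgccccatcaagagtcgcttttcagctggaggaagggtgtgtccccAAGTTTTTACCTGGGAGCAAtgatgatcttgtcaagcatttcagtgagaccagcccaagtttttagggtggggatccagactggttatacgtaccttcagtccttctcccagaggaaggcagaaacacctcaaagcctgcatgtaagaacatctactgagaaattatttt
DSG3: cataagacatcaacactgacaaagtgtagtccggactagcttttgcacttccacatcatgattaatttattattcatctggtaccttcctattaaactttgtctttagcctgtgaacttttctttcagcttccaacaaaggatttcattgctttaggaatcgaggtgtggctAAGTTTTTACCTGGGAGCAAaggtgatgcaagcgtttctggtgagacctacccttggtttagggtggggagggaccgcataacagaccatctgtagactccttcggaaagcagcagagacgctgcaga

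Other proteins of the desmosome and the cornified envelope were listed as desmosome-associated, and 7 of 8 were tested. By the brightest probe of each gene, 2 passed with the 2-fold limit and were higher, 1 was lower by the adjusted p alone, and the median log2 fold change was 0.02. PERP, a membrane protein of desmosomes under p63 control, read 18000.3, 22272.0 and 19644.2 in shCtrl and 46678.3, 48076.4 and 50243.8 in shXBP-1s, with no overlap. PERP rose by 1.01 on the log2 scale (standard error 0.11, limma adjusted p = 1.56e-04). Its change was below 2-fold without shCtrl replicate 1 (0.98), shCtrl replicate 3 (0.98) or shXBP-1s replicate 3 (0.90).

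TGM1, the transglutaminase that cross-links envelope proteins, read 58.2, 72.5 and 71.0 in shCtrl and 195.8, 180.5 and 186.5 in shXBP-1s. TGM1 rose by 1.21 on the log2 scale (standard error 0.09, limma adjusted p = 2.6e-05), or by 1.32 within the shared slide. Its change was 0.34 under normexp, where the call was lost (limma adjusted p = 0.451). After quantile normalization of those values it was 0.75, past the test (9.4e-05) but short of 2-fold. Periplakin (PPL), a plakin of the envelope and a relative of DSP, moved the other way and fell by 0.47 (standard error 0.10, limma adjusted p = 0.00549), a call lost in the methods' t-test with Benjamini-Hochberg adjustment (0.0539). Under normexp PPL had -0.43 and passed the test (limma adjusted p = 4.03e-04), but lay at -0.02 from the median of all probes. Envoplakin (EVPL, 0.02), corneodesmosin (CDSN, 0.003) and the 3 probes of PKP4 (-0.02 to 0.07) did not pass the test.

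Genes of related junctions were counted in the same way. Of 11 adherens junction genes, 5 were higher and 3 lower by the adjusted p alone and none reached 2-fold, with a median log2 fold change of 0.15. E-cadherin (CDH1), the main classical cadherin of epithelia, had 0.13 (limma adjusted p = 0.143), and passed the test with quantile normalization (0.22, adjusted p = 0.00774), with the deposited log2 values (0.22, 0.00792) and with normexp and quantile normalization (0.22, 0.0111). Beta-catenin (CTNNB1) had 0.01 in its brightest probe and 0.40 in a dimmer one (limma adjusted p = 0.013). CDH3, another classical cadherin of the list, rose by 0.61 (limma adjusted p = 1.86e-04), and NECTIN1 rose by 0.77 (5.95e-05). NECTIN2 went the other way in its brightest probe (-0.62, limma adjusted p = 1.02e-04) and had 0.15 in a dimmer one. All of these adherens junction genes were named after their values were seen. Of 8 hemidesmosome genes, whose products anchor cells to the basement membrane, 4 were higher and 0 lower, with a median of 0.20, and none reached 2-fold by its brightest probe. Among dimmer probes, 3 passed with the fold, namely 2 of DST, a plakin of hemidesmosomes (1.26 each, against 0.19 in its brightest probe), and 1 of ITGA6, an integrin chain (1.01, against 0.87), also named after their values were seen. Of 12 genes of desmosome turnover and regulation, 4 were higher and 1 lower by the adjusted p alone, with a median of 0.02, and none reached 2-fold. The 4 higher were the protease ADAM10 (0.28, and 0.57 in a dimmer probe), the growth factor receptor EGFR, and the epithelial transcription factors GRHL3 and TP63 (0.93). EGFR had 0.67, with dimmer probes at -0.32 and 0.37, both past the test. GRHL3 had 0.85, with a dimmer probe at 0.01 that did not pass (limma adjusted p = 0.973). The lower was PRKCA (-0.72), a kinase that loosens desmosomes, and all of these turnover genes were named after their values were seen. No difference between these lists and the desmosome components was tested.

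**Figure D4:**
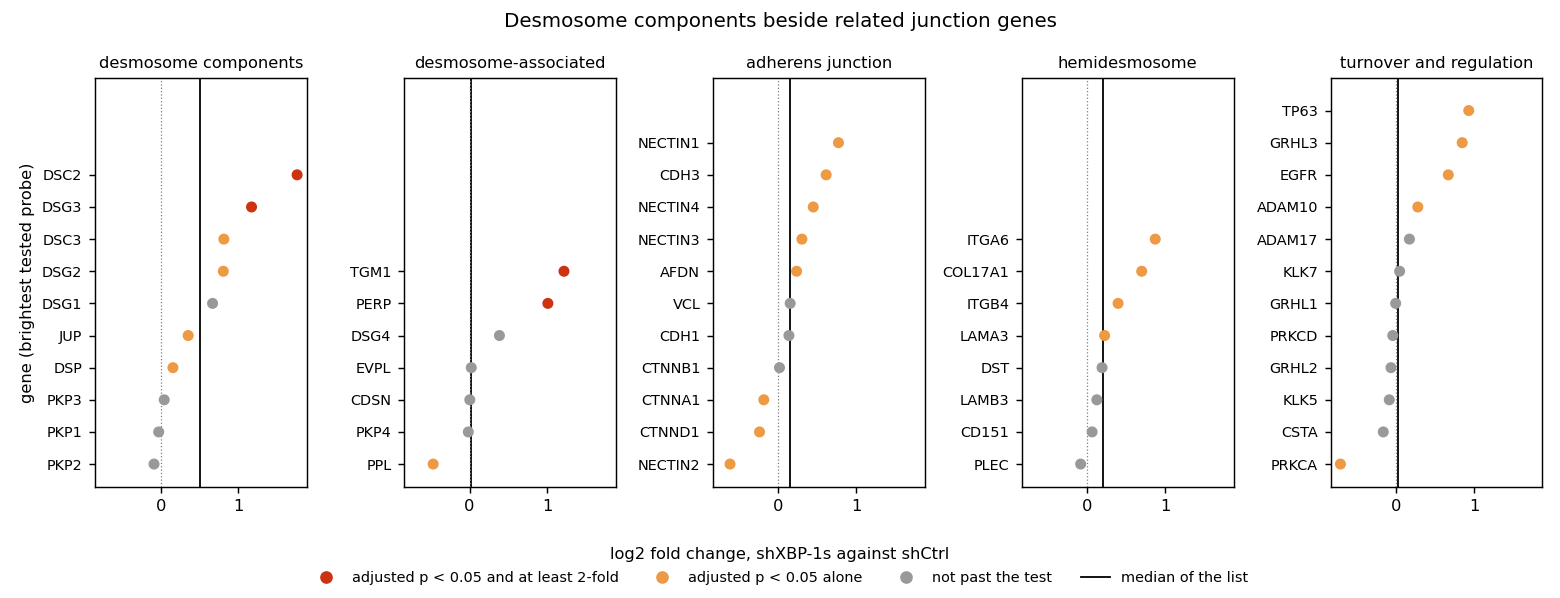
Log2 fold change, shXBP-1s against shCtrl (x axis), of the brightest tested probe of each gene (y axis) in the desmosome components and 4 related lists, with the median of each list as a line and the colour giving the call. The medians are 0.51 for the desmosome components and 0.02, 0.15, 0.20 and 0.02 for the desmosome-associated, adherens junction, hemidesmosome and turnover lists.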

How the data were processed

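RNA of 3 shCtrl and 3 shXBP-1s samples was hybridised to 1-colour Agilent 4 × 44 K arrays, per the paper's methods and the file headers, although the labels describe a NimbleGen labelling protocol. The deposited scanner files were made by the authors with Agilent Feature Extraction 11.0.1.1, and their processed signal is a background-subtracted intensity. The authors also deposited a log2 value table, and the submitters' notes name RMA, with the steps otherwise not given in the sources used here.

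The processed signal was log2-transformed and scaled by subtracting the 75th percentile of each array over non-control spots, leaving out flagged spots (230 to 377 per array of 44495) and averaging the spots of a probe. The test took the 27624 probes that stood well above background on every array of shCtrl, of shXBP-1s or of both (26306 of them on all 6). Differences were fitted with limma 3.58.1 in R 4.3.3 (lmFit, eBayes with trend, 2-sided, Benjamini-Hochberg over all tested probes), at an adjusted p of 0.05, with and without a 2-fold minimum. Symbols came from RefSeq (GRCh38.p14) through the accessions, and 25771 of 34127 probes had 1. Of 200 probes changed by 1.5 (log2) in simulated data on the 27624 probes, 174 were recovered with 1 false call. The simulated probes were independent, had no slide effect and were otherwise unchanged, so these counts do not give the error rate of the real arrays.

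The members and lists were chosen with earlier results of these data known. The rule for named genes took all members, XBP1, the desmosome-associated genes and, of the other 3 junction lists, genes past the 2-fold limit by their brightest probe, with markers as ranges and counts, and genes outside it are marked in the text as named after their values were seen or are neighbours of the cadherin genes. A planned gene of the hemidesmosome list is not reported here and is in none of the list counts. Alternatives were normexp (on the median spot signal, as the mean signal was not used here), alone or with quantile normalization, then quantile normalization by itself, the log2 table, scaling over detected probes, a looser and a stricter dim-probe filter, eBayes with no trend, the t-test that the methods name, blocks for slide or replicate number, the mean of a gene's probes, and leaving out each array. A planned comparison of the proteins was not run, as the sequences were not used here. Deviations of same-numbered samples from their group means correlated at -0.02, 0.12 and -0.12. Those of differently numbered samples correlated at -0.125 to 0.117. No pairing by number was thus seen, but so few samples cannot exclude it.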

Additional observations from a re-analysis of the deposited data

How the results depend on the processing

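Under normexp and under normexp with quantile normalization, 0 desmosome probes passed the adjusted p with 2-fold, against 3, and under normexp 5 passed the adjusted p alone, against 8. Over all tested probes, 473 (159 higher, 314 lower) and 357 passed with the fold in these settings, against 1354 (632 higher, 722 lower), or 736 higher and 619 lower with scaling over detected probes. The cause was not tested. Signs turned under normexp for DSG1 (-0.61) and the dimmer PKP1 probe (-0.82), and for the brighter PKP1 probe with scaling over detected probes (0.03) and with arrays left out (-0.124 to 0.091), none past the test. Leaving out each array gave 2 to 3 desmosome probes with the fold, 7 to 8 by the adjusted p alone, and 1253 to 1695 probes over the array. With the slide as a block, where shCtrl replicate 1 is the sole control, the counts were 2 and 7. The replicate number as a block, a pairing neither seen nor excluded, gave 3 and 8 (1381 over all probes). With this block DSG1 passed the test (limma adjusted p = 0.0342, as with scaling over detected probes, 0.048) and the brighter DSP probe did not (0.0575). That DSP probe also missed the test under normexp (0.402), normexp with quantile normalization (0.15), no dim-probe filter (0.0506), eBayes with no trend (0.0712), the adjusted t-test of the methods (0.0532) and the slide as a block (0.208). Quantile normalization, the deposited log2 values and the other filters gave 3 probes with the fold, and counting genes by their brightest probe or by the mean of their probes gave 2. The dimmest desmosome probes by processed signal in shCtrl were those of PKP1 (6.6 to 21.4), DSG1 (16.3 to 28.4) and DSC2 (27.8 to 35.2). The dimmer DSC3 probe came next (74.9 to 81.2). Whether low signal played a part was not tested.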
